A study of Mus musculus with 194 samples.

Results

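The genes described here are 2 small families of neural cell adhesion genes: the IgLON genes Lsamp, Negr1, Ntm and Opcml, and the Cadm genes Cadm1, Cadm2, Cadm3 and Cadm4. They were taken by name, as 8 of the 21627 protein-coding loci counted, with earlier results of these data known. The measurement was the number of transposon insertions in each gene body with 10 kb added on each side, scaled to 1000000 insertions in the animal's table (insertions per 1000000, IPM) and to 100 kb of locus, called insertion density below. All positions are on mouse GRCm38 (mm10). Lsamp (gene ID 268890) runs over 2197 kb at chr16:39984254-42181679, Opcml (330908) over 1135 kb at chr9:27790716-28925410, Ntm (235106) over 969 kb at chr9:28994749-29963269 and Negr1 (320840) over 755 kb at chr3:156561790-157316464. Cadm2 (239857) runs over 966 kb at chr16:66655416-67620917 and Cadm1 (54725) over 332 kb at chr9:47530170-47862280. Cadm3 (94332) covers only 36.2 kb at chr1:173331892-173368139, and Cadm4 (260299) 22.5 kb at chr7:24482023-24504533. The Lsamp body overlaps Gm52229, the Cadm3 locus overlaps Ackr1 and Aim2, and the flanks of Cadm4 overlap Plaur and Zfp428, so an insertion there counts for both genes.

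IgLON proteins are small immunoglobulin-domain proteins held on the neuronal surface by a lipid anchor. They bind one another in pairs of like and unlike members, and act in neurite growth and synapse formation. Lsamp marks limbic circuits, Negr1 (also called kilon) and Ntm (neurotrimin) are known on cortical and hippocampal neurons, and Opcml was first described as an opioid-binding protein. Cadm proteins, also called SynCAMs or nectin-like molecules, cross the membrane, bind across the synaptic cleft or between axon and glia, and hold scaffold proteins inside the cell. Cadm1 and Cadm2 promote synapses, Cadm3 lies on axons, and Cadm4 lies mainly on glia, where it binds Cadm3.

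Calling cards record where a transposase has acted: a reporter is inserted at TTAA sites, and each insertion is later read out. In this method a transcription factor can be joined to the transposase so that insertions collect near its binding sites, while transposase alone inserts by its own preference. Every mouse had received AAV at P0-1, and the labels do not name the transposase or describe the SP1 construct. Self-reporting transcript (SRT) libraries were read from RNA of cortex cut into 10 pieces, and BrokenHeart libraries from cortex DNA by inverse PCR with 20 barcoded transposons. The 47 tables, made from 194 library records, held 46 animals in 11 groups and 1 table of the N2a line.

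The groups were as follows. C57bl6J (n = 2) were mice without a Cre line, given viruses that need no Cre. Syn1Cre (n = 6) carried Cre under the neuronal synapsin 1 promoter and GFAPCre (n = 6) under the astrocytic GFAP promoter, each with Cre-negative animals (Syn1CreNeg and GFAPCreNeg, n = 6 each). Frontflip named another construct in GFAPCre (n = 3) and Cre-negative mice (n = 3). Rbp4Cre (n = 4) was whole-forebrain RNA after TRAP, a pull-down of ribosomes from cells of the Cre line, which is known for layer 5 projection neurons. The SP1 groups were Syn1Cre mice with SP1 at P10 (n = 3) and P28 (n = 4). BrokenHeart (n = 3) was the DNA readout. Ages other than those of the SP1 groups, and the strain behind the Cre lines, are not given in the labels.

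Tables of the 2 C57bl6J animals held 1545951 and 2186743 insertions, those of Syn1Cre 443158 to 1364948, SP1 P10 86842 to 95331, SP1 P28 108965 to 577609, Rbp4Cre 24408 to 57014, and BrokenHeart 42511 to 98197. The 3 Frontflip Cre-negative tables held only 2341 to 9601 insertions and entered no test. Many library records name pieces of several animals, and animals joined by such records, directly or through another animal, are called linked below. The SP1 animals of both ages were linked in 1 chain, in which P28 replicate 1 shared records only with P28 replicate 2. Syn1Cre animals 1 to 3 were linked, as were animals 4 to 6, and none to an animal of another group, so that the library records and the group cannot be told apart in any comparison with Syn1Cre. The Cre labels were set against marker loci. The sum over 6 neuronal loci was 1948 to 2345 IPM in Syn1Cre and 1796 to 2371 in GFAPCre, and that over 6 astrocyte loci 551 to 1835 and 738 to 1519, so insertions in GFAPCre animals were not limited to astrocyte loci. No locus of either list was at 0 in all animals of a Syn1Cre, GFAPCre, SP1 or Cre-negative group of 6. Gad1 was at 0 in all Rbp4Cre animals, and Gad1 and Slc17a7 in all Frontflip Cre-negative animals. Both groups had few insertions per table. In bulk cortex, fewer marked cells of a type and fewer insertions or less reporter RNA per cell cannot be told apart. The labels do not say which animals were littermates, and p-values measure only the spread between these animals.

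SP1 binds GC-rich promoter sequence, whose core is GGGCGG, which reads as CCGCCC on the other strand, and so the promoters of 3 members are shown here, chosen because Cadm4, Negr1 and Opcml behaved differently in the SP1 animals. Each is 300 bases of RefSeq sequence (GRCm38.p6), 250 before and 50 after the annotated start, written 5′ to 3′ along the gene. Capitals mark each match to the 6-base core on either strand. Cadm4 lies at chr7:24481773-24482072, Negr1 at chr3:156561544-156561843 and Opcml at chr9:27791049-27791348, all on the + strand.
Cadm4: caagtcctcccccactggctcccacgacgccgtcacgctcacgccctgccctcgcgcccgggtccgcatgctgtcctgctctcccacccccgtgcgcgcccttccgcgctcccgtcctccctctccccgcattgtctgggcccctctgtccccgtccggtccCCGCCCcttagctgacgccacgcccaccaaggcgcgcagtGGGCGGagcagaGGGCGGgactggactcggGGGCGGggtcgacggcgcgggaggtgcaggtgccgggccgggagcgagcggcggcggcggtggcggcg
Negr1: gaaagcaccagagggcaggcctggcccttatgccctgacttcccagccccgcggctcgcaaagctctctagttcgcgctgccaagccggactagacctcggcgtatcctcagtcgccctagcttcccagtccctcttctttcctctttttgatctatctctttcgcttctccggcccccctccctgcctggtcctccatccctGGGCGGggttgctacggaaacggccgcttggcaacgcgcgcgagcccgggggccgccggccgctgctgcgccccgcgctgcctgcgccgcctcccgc
Opcml: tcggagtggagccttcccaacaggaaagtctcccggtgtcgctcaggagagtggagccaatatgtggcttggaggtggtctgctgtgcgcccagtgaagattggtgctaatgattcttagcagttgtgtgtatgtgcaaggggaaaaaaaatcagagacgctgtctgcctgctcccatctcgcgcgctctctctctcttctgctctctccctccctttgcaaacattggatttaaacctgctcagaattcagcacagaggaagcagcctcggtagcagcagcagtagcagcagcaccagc

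The Cadm4 promoter held 4 matches, 3 forward and 1 reverse, in sequence of 77.0% GC. Of the 32851 promoters in the RefSeq table, 35.7% held at least 1 match and 5.49% held as many as Cadm4. The Negr1 promoter held 1 match at 68.0% GC, the Cadm2 promoter 1 at 62.7%, and 1 of the 2 Ntm promoters 1 at 55.7%. No match was found in the Opcml (53.7% GC), Cadm3 (66.7%), other Ntm (47.3%) or either Lsamp promoter window (53.0% and 56.3%). A link between matches and insertions was not tested. Promoters of 7 of the 8 members matched the table. Cadm1 did not.

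In cortex without SP1, Cadm2 had the highest density of the 8 in each of the 7 SRT groups of cortex, and all 8 loci were above the median locus in the 6 of those groups that had a median above 0. In Syn1Cre, Cadm2 was at 259 ± 62.9 (SD, n = 6), Cadm1 at 189 ± 11.3, Negr1 at 177 ± 19, Ntm at 139 ± 20.3, Cadm4 at 127 ± 11.7, Lsamp at 112 ± 16.4, Cadm3 at 103 ± 13.3 and Opcml at 101 ± 7.75 IPM per 100 kb. The median locus there was at 31.6, so the members lay 3.19-fold (Opcml) to 8.19-fold (Cadm2) above it. The 8 loci together took 0.973 ± 0.114% of all insertions in Syn1Cre, 1.20 ± 0.0306% in Syn1CreNeg, 1.08 ± 0.0156% in GFAPCre and 1.22 ± 0.0428% in GFAPCreNeg. They took 0.416 ± 0.0288% in SP1 P10 (n = 3), 0.713 ± 0.0630% in SP1 P28 (n = 4) and 0.548 ± 0.0388% in BrokenHeart (n = 3). The SP1 P10 and BrokenHeart animals thus had the smallest shares of the mouse groups.

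**Figure D1:**
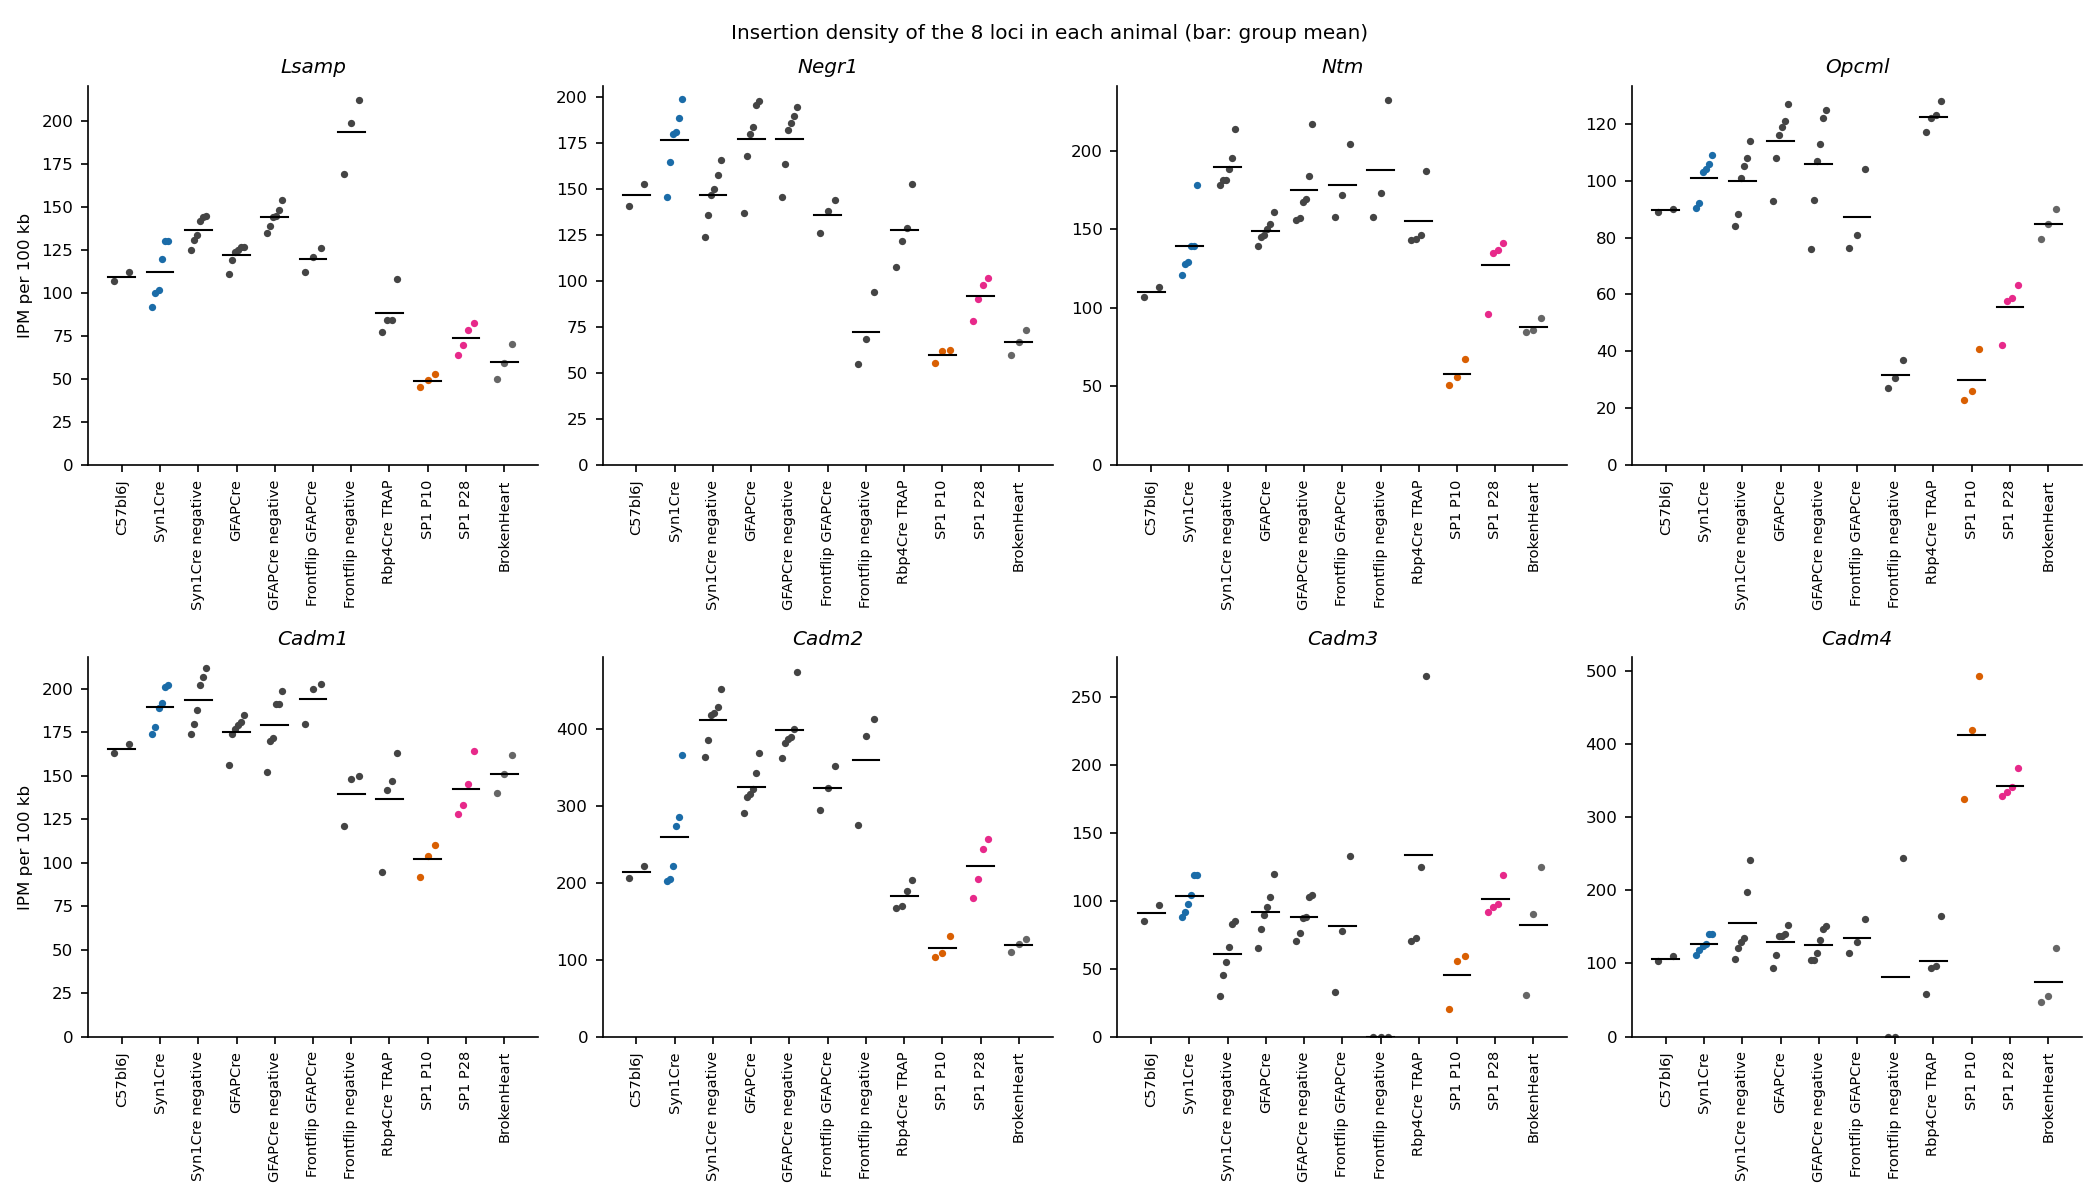
Insertion density (IPM per 100 kb of locus, linear axis from 0) of each of the 8 loci, 1 point per animal and a bar at the group mean, in the 11 mouse groups. The SP1 P10 animals (orange) have the lowest mean of Lsamp, Negr1, Ntm, Opcml, Cadm1 and Cadm2 and, for Cadm4, the highest, at 413; Frontflip negative points rest on few insertions.

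Ordered by mean over the 11 groups, SP1 P10 stood last for Lsamp, Negr1, Ntm, Opcml, Cadm1 and Cadm2. Most neighbours in these orders overlapped in their ranges: 9 of 10 neighbouring pairs for Lsamp, Negr1, Cadm1, Cadm3 and Cadm4, and 8 of 10 for Ntm, Opcml and Cadm2. For Ntm the last step did not overlap: BrokenHeart animals were at 84.5, 85.7 and 93.7 and SP1 P10 animals at 50.9, 55.9 and 67.6. For Opcml the highest group was Rbp4Cre at 123 ± 4.31 (n = 4), and the 2 lowest, Frontflip Cre-negative and SP1 P10, overlapped at 27.1 to 37.0 and 22.7 to 40.9. Cadm4 was highest in SP1 P10 and SP1 P28, which overlapped, and every SP1 animal lay above every animal of the other 9 groups.

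In Syn1Cre, read from RNA, most insertions in the bodies of Negr1, Ntm, Opcml, Cadm2 and Lsamp lay on the gene's own strand, and in BrokenHeart, read from DNA, 42.1 to 51.3% did. In the Negr1 body 76.7% of 7445 Syn1Cre insertions lay on the gene's strand (exact 95% interval 75.8 to 77.7), with single animals at 74.7 to 79.8%. The share was 66.5% for Ntm, 66.7% for Opcml, 66.1% for Cadm2 and 60.6% for Lsamp, against a mean over animals of 52.2% for the insertions in 14271 other loci that overlap no further coding locus. Cadm3 leaned furthest, with 222 of 252 body insertions (88.1%) on its strand, whereas Cadm4 had 16 of 38 (42.1%, interval 26.3 to 59.2). In BrokenHeart, the share was 49.3% for Lsamp, 47.4% for Negr1, 49.7% for Opcml and 51.3% for Cadm2, each with an interval that holds 50%, and 42.1% for Ntm (interval 34.6 to 49.9), where the other loci averaged 48.2%. The strand is that of the tables, and what it denotes for each readout is not given in the sources used here. Intervals cover counting error only. These shares were examined after the data were seen and have no test.

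In the SP1 animals the share was 76.7% in P10 and 73.0% in P28 for Negr1, and 67.6% and 63.4% for Cadm2. The other loci averaged 42.1% in P10 and 45.5% in P28. For Opcml the share was 57% in P10 (interval 46.3 to 67.2, 93 insertions) and 56.1% in P28 (52.4 to 59.7, 735 insertions). The 4 P28 animals ranged from 54.2 to 62.3%, all below the 6 Syn1Cre animals at 63.2 to 69.6%.

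**Figure D2:**
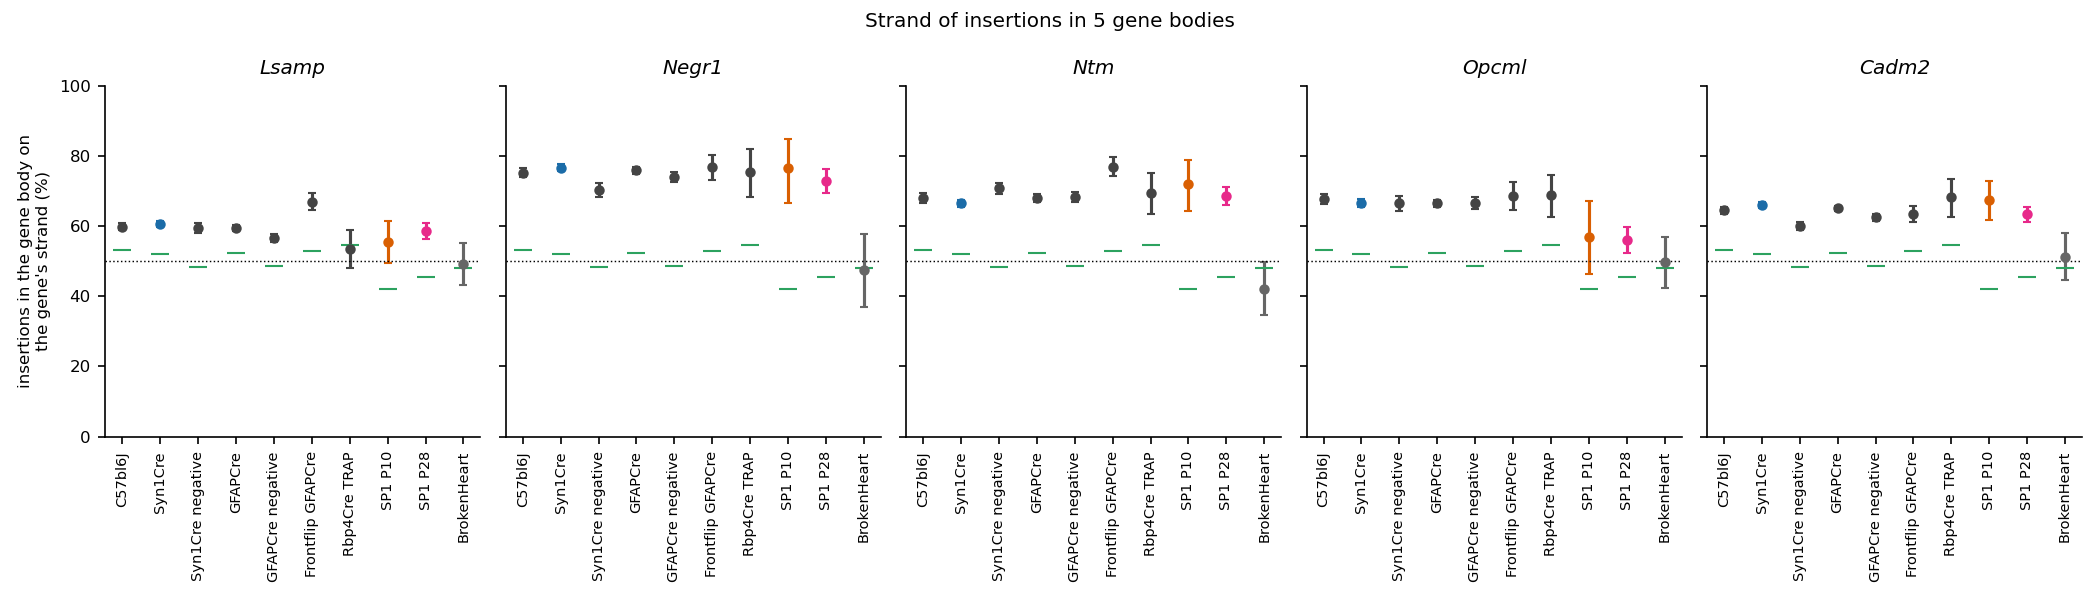
Share of insertions in the gene body that lie on the gene's strand, in percent, for the 5 longest members with a known strand, by group; bars are exact 95% intervals over pooled insertions, green dashes the mean over animals for 14271 other loci, and the dotted line 50%. The 9 SRT groups plotted lie above 50% for Negr1, Ntm, Opcml and Cadm2, and the BrokenHeart points lie between 42.1 and 51.3%.

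With SP1, Lsamp, Negr1, Opcml and Cadm1 lay below every Syn1Cre animal at both ages, and Cadm4 lay above. Ntm, Cadm2 and Cadm3 lay below every Syn1Cre animal at P10 only. The comparison of the SP1 groups with Syn1Cre asks where insertions differ when SP1 is present in the same Cre line. The age of the Syn1Cre animals is not given, so SP1 and age cannot be told apart in it. Lsamp density was 45.2, 52.8 and 49.2 in the P10 animals and 82.7, 64.2, 69.6 and 78.5 in the P28 animals, against a lowest of 92.1, a median of 111 and a highest of 130 in Syn1Cre. No SP1 animal reached the Syn1Cre range. The log2 ratio to Syn1Cre was -1.76 ± 0.18 (SE) at P10 (edgeR adjusted p = 1.1e-08) and -1.10 ± 0.16 at P28 (4.3e-06). Negr1, which human genetics links to body weight, was at 62.4, 61.8 and 55.5 in P10 and at 102, 78.2, 90.2 and 97.9 in P28, against 146, 181 and 199 as the lowest, median and highest of Syn1Cre. The SP1 and Syn1Cre animals did not overlap, with a log2 ratio of -2.12 ± 0.17 at P10 (edgeR adjusted p = 3.3e-10) and -1.42 ± 0.15 at P28 (3.7e-08).

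Opcml had the lowest ratio of the 8 at P10 and was the 1 member below the median locus there, at 0.921 times its density. Its P10 animals were at 40.9, 26.0 and 22.7 and its P28 animals at 57.5, 42.1, 58.9 and 63.4, against 90.5, 104 and 109 in Syn1Cre, again without overlap. The log2 ratio was -2.32 ± 0.18 at P10, 4.98-fold lower with TMM scaling (edgeR adjusted p = 2.1e-10), and -1.33 ± 0.15 at P28 (7.2e-08). Scaled by library totals, as the densities are, the P10 log2 ratio was -1.76, with mean densities of 29.9 in P10 and 101 in Syn1Cre. Ntm differed between the ages. Its P10 animals, at 55.9, 67.6 and 50.9, lay below every Syn1Cre animal (121, 134 and 178 as lowest, median and highest), while its P28 animals, at 137, 141, 135 and 96.2, overlapped them. The Ntm log2 ratio was -1.82 ± 0.18 at P10 (edgeR adjusted p = 1.3e-08) and -0.64 ± 0.16 at P28 (0.0017).

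Among the Cadm loci, Cadm1 was at 91.6, 104 and 110 in P10 and at 164, 133, 128 and 145 in P28, below the Syn1Cre animals at 174 to 202. Its log2 ratio was -1.44 ± 0.17 at P10 (edgeR adjusted p = 1.7e-07) and -0.89 ± 0.15 at P28 (1.4e-05). Cadm2 was at 109, 131 and 104 in P10, below Syn1Cre at 202, 248 and 366 (lowest, median and highest), and at 257, 205, 244 and 180 in P28, which overlapped it. Its log2 ratio was -1.74 ± 0.21 at P10 (edgeR adjusted p = 2.0e-07) and -0.73 ± 0.19 at P28 (0.0019). Cadm3 rested on few insertions in the SP1 animals, 7 in all at P10 and 60 at P28. Its P10 animals were at 20.5, 59.4 and 56.0 and its P28 animals at 92.0, 97.9, 119 and 95.4, the latter within the Syn1Cre range of 88.3 to 119. The log2 ratio was -1.73 ± 0.42 at P10 (edgeR adjusted p = 0.0017) and -0.55 ± 0.20 at P28 (0.024), and the P28 call was lost in 9 of 17 alternatives, among them without Syn1Cre replicate 4 or P28 replicate 1 or 4 (log2 -0.46 to -0.51).

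Cadm4 was the 1 member with more insertions at each age. It was at 325, 419 and 494 in P10 and at 335, 367, 329 and 342 in P28, against 111, 125 and 141 as lowest, median and highest in Syn1Cre, so that every SP1 animal lay above every Syn1Cre animal. The log2 ratio was 1.15 ± 0.22 at P10 (edgeR adjusted p = 1.9e-04) and 0.94 ± 0.15 at P28 (1.0e-05). Most of these insertions lay beyond the gene. The 10 kb flank at the high-coordinate end, which overlaps Zfp428 (chr7:24504548-24515682), held 62.5% of the locus' insertions in P10, 64.3% in P28 and 69.8% in Syn1Cre. That flank was at 37.3 ± 4.63 IPM in Syn1Cre (n = 6), 110 ± 40.1 in P10 (n = 3) and 92.8 ± 16.2 in P28 (n = 4). The Cadm4 body alone was at 7.57 ± 3.33, 28.4 ± 31.9 and 29.8 ± 18.3 in the same groups, from 38, 8 and 26 insertions. The 3 most shared positions of the locus were all in that flank, 23.6 to 25.1 kb from the Cadm4 start.

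In count form, 1 member rose (Cadm4) and 7 fell at each age. Over all loci, 40.8% of 12858 tested were called at P10, 19.6% higher and 21.2% lower. At P28, 51.5% of 12050 were called, 26.2% higher and 25.3% lower. The median log2 ratio of the members tested was -1.75 at P10 and -0.81 at P28, against medians over all loci of -0.28 and -0.06. The SP1 comparisons share the Syn1Cre animals, as do those of Rbp4Cre, C57bl6J, GFAPCre and Syn1CreNeg below.

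These values use TMM, which sets the bulk of loci equal between libraries. Scaled by library totals alone, the median of all loci moved to 0.27 at P10 and 0.42 at P28. The split of calls moved from 2524 higher and 2725 lower to 3650 and 1147 at P10, and from 3157 and 3054 to 5022 and 1227 at P28. All 8 members kept their P10 calls under library totals, with log2 ratios of -1.19 (Lsamp), -1.56 (Negr1), -1.26 (Ntm), -1.76 (Opcml), -0.89 (Cadm1), -1.17 (Cadm2), -1.18 (Cadm3) and 1.70 (Cadm4). At P28, Lsamp (-0.60), Negr1 (-0.93), Opcml (-0.84), Cadm1 (-0.40) and Cadm4 (1.42) kept their calls, and Ntm (-0.14), Cadm2 (-0.23) and Cadm3 (-0.07) did not pass. Counted over gene bodies without the flanks, 4 of 7 members tested were lower at P28 and Cadm4 was not tested. Beside these changes, the sum over 6 neuronal loci was 1221 to 1469 IPM in P10 and 1531 to 1707 in P28, below Syn1Cre at 1948 to 2345. Locus by locus, 2 of the 6 neuronal loci were higher and 2 lower at each age, with a median log2 ratio of 0.18 at P10 and -0.16 at P28. The sum over 6 astrocyte loci was 808 to 1058 in P10 and 892 to 2017 in P28, within the Syn1Cre range of 551 to 1835 for P10 and reaching above it for P28. Of these, 1 was lower at P10 and 1 higher at P28. Oligodendrocyte lineage loci were lower at 1 of 5 tested at P10 and 2 of 5 at P28. Endothelial loci were lower at 1 of 2 and layer 5 loci at 1 of 2 at each age. None of these was called higher. Yet the layer 5 sum, over 3 loci, was 713 to 969 IPM in P10, above Syn1Cre at 541 to 622. At P28 it was 513 to 630. The oligodendrocyte lineage sum was 178 to 265 in P10 and 196 to 267 in P28, against 201 to 262 in Syn1Cre. The part of these in the result was not tested.

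**Figure D3:**
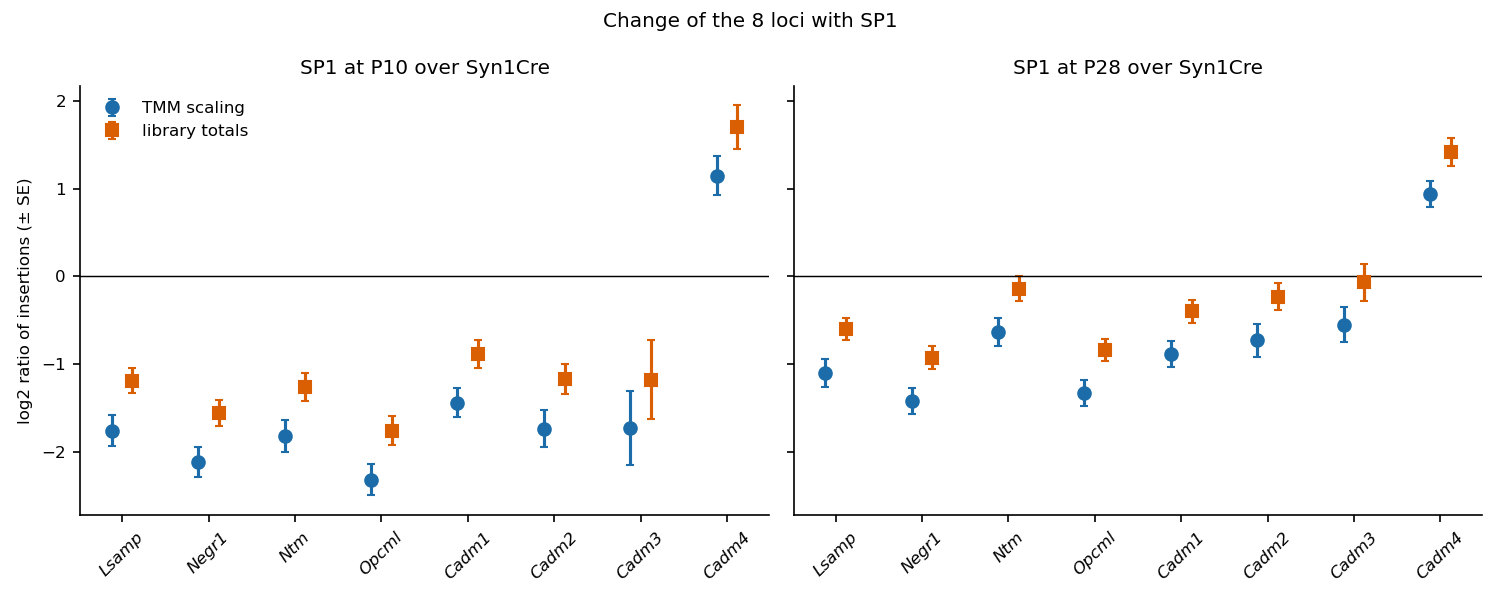
Log2 ratio of insertions per locus, SP1 over Syn1Cre, with its standard error, at P10 (left) and P28 (right), scaled by TMM (circles) or library totals (squares). At P10 the 7 lower loci lie at -1.44 or below with TMM and Cadm4 at 1.15; at P28 library totals bring Ntm, Cadm2 and Cadm3 to -0.14, -0.23 and -0.07.

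Most other long loci were lower as well. In length classes chosen after the data were seen, 552 loci of at least 300 kb were tested in each SP1 comparison, 6 of them members. Of these, 82.4% were lower at P10 and 87.3% at P28, with median log2 ratios of -1.40 and -1.06. Loci under 50 kb, the class of Cadm3 and Cadm4, had medians of 0.07 and 0.27, and 26.1% and 35.7% of them were higher. Negr1, Opcml, Lsamp, Ntm, Cadm2 and Cadm1 lay between -1.44 and -2.32 at P10, below the long-gene median. At P28 Negr1 (-1.42), Opcml (-1.33) and Lsamp (-1.10) lay below that median, and Cadm1 (-0.89), Cadm2 (-0.73) and Ntm (-0.64) above it.

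Lower windows were spread along the long genes, and the first window of Negr1 was not among them. Of 133 windows of 50 kb in the 8 loci, 86 were lower and 1 higher at P10, and 56 lower and 1 higher at P28. Over the genome 24.7% of windows were called at P10 (10.4% higher, 14.3% lower) and 39.1% at P28 (20.7% higher, 18.5% lower). Lower windows made up 14 of 16 in Negr1, 15 of 19 in Ntm, 17 of 20 in Cadm2, 15 of 23 in Opcml, 21 of 45 in Lsamp and 4 of 7 in Cadm1 at P10. At P28 they made up 13, 8, 9, 11, 14 and 1 of the same windows. The 1 higher window at each age was that of Cadm4 (chr7:24450001-24500000), at 18.6 ± 1.81 IPM in Syn1Cre, 83.7 ± 40.8 in P10 and 43.1 ± 19 in P28. With library totals the counts were 78 lower and 1 higher at P10 and 73 lower and 1 higher at P28. The split over all windows moved from 2465 higher and 3389 lower to 2647 and 2811 at P10, and turned from 4265 and 3813 to 3940 and 4540 at P28.

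The windows with the lowest ratios past the threshold at P28 lay away from the starts. In Opcml chr9:27900001-27950000, 134 kb from its start, was at 31.8 ± 5.37 IPM in Syn1Cre and 7.15 ± 6.03 in P28 (log2 -1.70). In Lsamp chr16:40650001-40700000, 691 kb from a start, was at 47.4 ± 6.18 and 13.6 ± 12.7 (log2 -1.65). In Negr1 chr3:156750001-156800000, 213 kb from its start, was at 138 ± 23.7 and 46.1 ± 13.2 (log2 -1.62). At P10, 3 member windows had no insertion in any of the 3 animals, where a floor of 3 counts over the group equals 11 IPM. Against that floor chr3:157250001-157300000 in Negr1 was at least 6.61-fold lower than in Syn1Cre (72.9 ± 12.1), chr16:41450001-41500000 in Lsamp at least 3.13-fold lower (34.6 ± 4.48), and the Opcml window above at least 2.88-fold lower. With these 3 at their bound, the median log2 ratio of the member windows was -1.61.

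**Figure D4:**
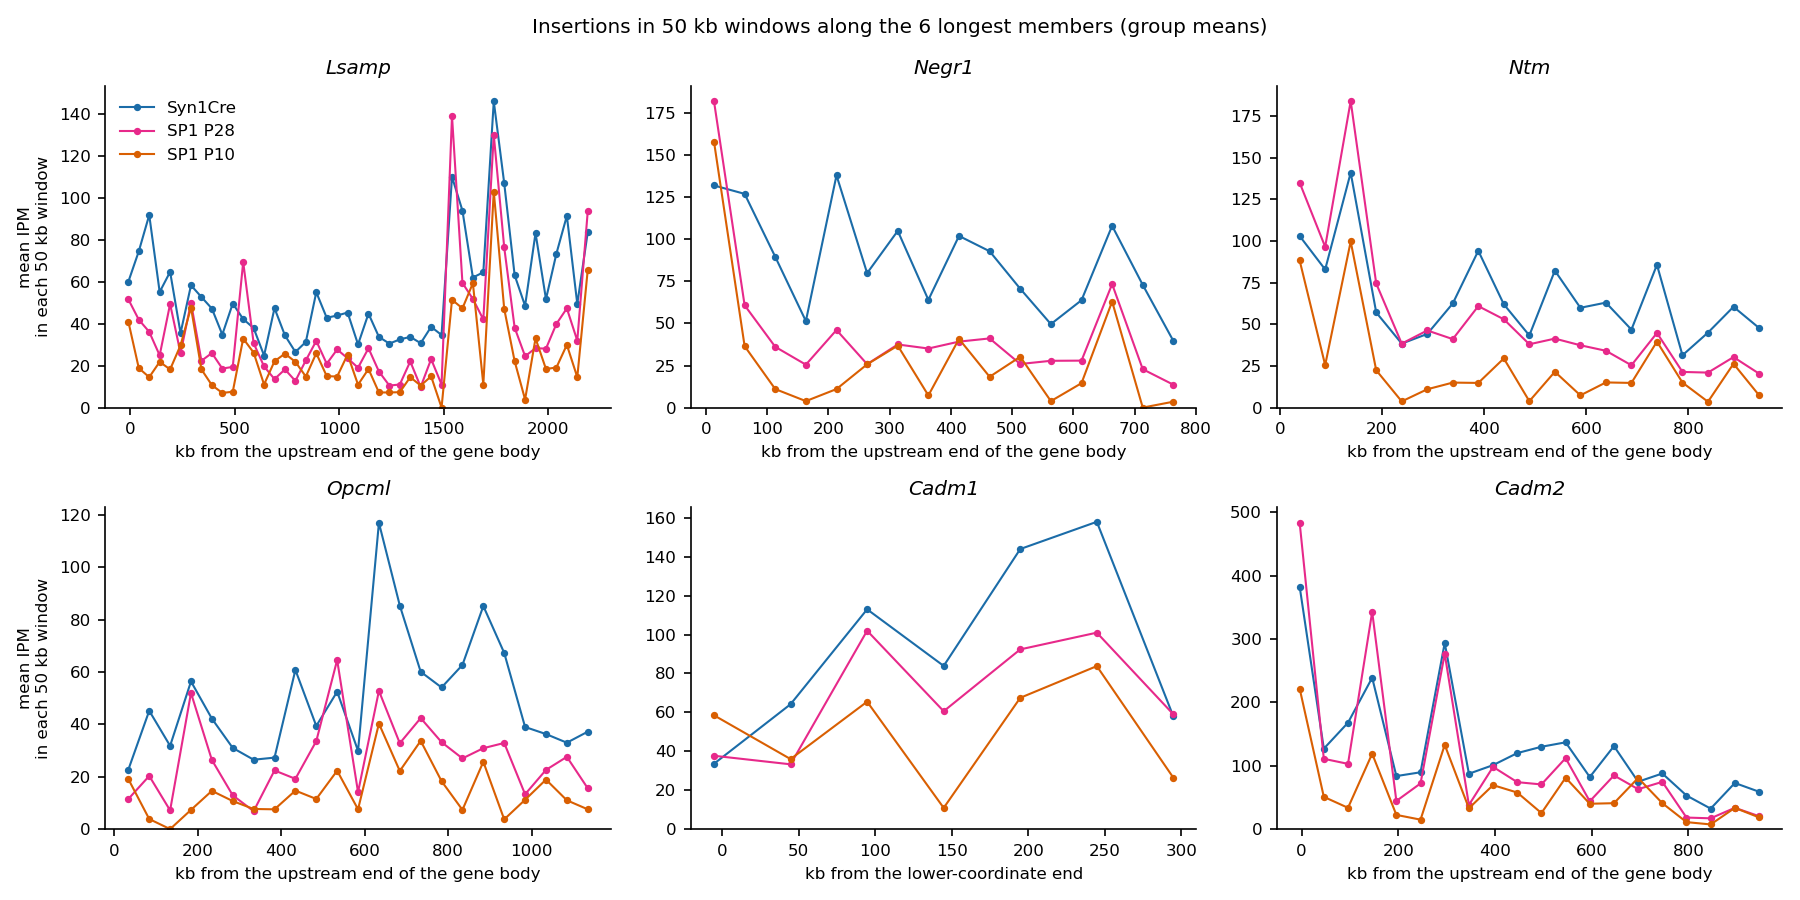
Mean IPM in each 50 kb window along the 6 longest members, by distance in kb from the upstream end of the gene body (from the lower-coordinate end for Cadm1, whose strand the tables used here do not give), in Syn1Cre, SP1 P28 and SP1 P10. In Negr1 the first window is at 158 in P10 and 182 in P28, above Syn1Cre, and nearly all later windows lie below it.

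The 10 kb around a gene's start behaved unlike the body in Negr1, and its share of the locus was also higher in every SP1 animal than in Syn1Cre in Cadm2. Within 5 kb of the Negr1 start, the P10 animals had 115, 178 and 147 IPM, and the P28 animals 168, 156, 146 and 116, against 39.9 to 88.0 in Syn1Cre (67.9 ± 16.6, n = 6). Every SP1 animal lay above every Syn1Cre animal. As a share of the locus, the start held 4.86% of Negr1 insertions in Syn1Cre (interval 4.39 to 5.36), 31.7% in P10 (23.7 to 40.6, 40 of 126) and 18.3% in P28 (15.7 to 21.2, 147 of 803). Whether the level at the Negr1 start passed the test turned on the scaling. With TMM over all starts the log2 ratio was -0.29 at P10 (edgeR adjusted p = 0.40) and -0.13 at P28 (0.57). With library totals it was 1.12 at P10 (edgeR adjusted p = 0.0018) and 1.08 at P28 (9.1e-05), near the medians of all starts of 1.09 and 1.14 (with TMM, -0.31 and -0.03).

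The Cadm4 start passed under both scalings. It held 34.6, 22.3 and 94.4 IPM in P10 and 21.6, 45.9, 24.3 and 38.1 in P28, against 5.13 to 9.03 in Syn1Cre, without overlap, from 14, 36 and 38 insertions. Its log2 ratio was 1.47 ± 0.49 at P10 (edgeR adjusted p = 0.015) and 1.08 ± 0.32 at P28 (0.0049), and 2.87 and 2.23 with library totals. The Cadm2 start turned with the scaling at P28: at 116 to 138 IPM against 64.4 to 117 in Syn1Cre, it was lower with TMM (log2 -0.46, edgeR adjusted p = 0.028) and higher with library totals (0.72, 0.0033).

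At the internal Ntm starts and at Opcml, the mean level near the start was lower. As a share of the locus, the Ntm starts held 3.21% in Syn1Cre, 3.85% in P10 and 2.11% in P28. The 2 annotated Ntm starts lie under 1 kb apart, so their windows hold nearly the same insertions. The Ntm start had 43.9 ± 5.75 IPM in Syn1Cre (n = 6), 24.8 ± 13.0 in P28 (n = 4) and 21.5 ± 17.7 in P10 (n = 3), with log2 ratios of -1.99 (edgeR adjusted p = 3.0e-07) and -2.36 (4.9e-05). These values rest on 240, 26 and 6 insertions. With library totals it was lower at P28 (log2 -0.83) and did not pass at P10 (-0.98, adjusted p = 0.12). The Opcml start had 36.1 ± 5.89, 24.7 ± 8.02 and 22.1 ± 1.04 IPM in Syn1Cre, P28 and P10, with log2 ratios of -1.71 and -2.07 with TMM (edgeR adjusted p = 3.0e-06 and 2.3e-04) and no call with library totals (-0.55 and -0.68). It held 196, 26 and 6 insertions in these groups. Each P10 animal had 2, so that the P10 SD reflects table size alone. The 2 most shared Ntm positions lay 548 and 549 kb from these starts, at the high-coordinate end of the gene, where 10 kb held 80.4 ± 43.7 IPM in Syn1Cre, 148 ± 49.9 in P28 and 66.4 ± 48.8 in P10.

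In all, 1 member start was higher and 6 lower of 11 tested at P10, and 1 higher and 5 lower of 9 at P28, the Ntm pair counting as 2 in each. Over all starts 24.0% were called higher and 27.8% lower at P10, and at P28 30.0% higher and 26.9% lower. With library totals, 3 member starts were higher and 0 lower at P10, where the lower end of Cadm1 joined Negr1 and Cadm4, and 3 higher and 2 lower at P28. The split over all starts moved from 1925 higher and 2234 lower to 3821 and 363 at P10, and from 2229 and 1998 to 4878 and 276 at P28. Both ends of Cadm1 were used, since its start is not in the tables used here. The Syn1Cre and GFAPCre starts were called in 0 of 9 member cases by edgeR, also 0 at an unadjusted p under 0.05, beside 2.11% of all starts, and DESeq2 was not run on starts.

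**Figure D5:**
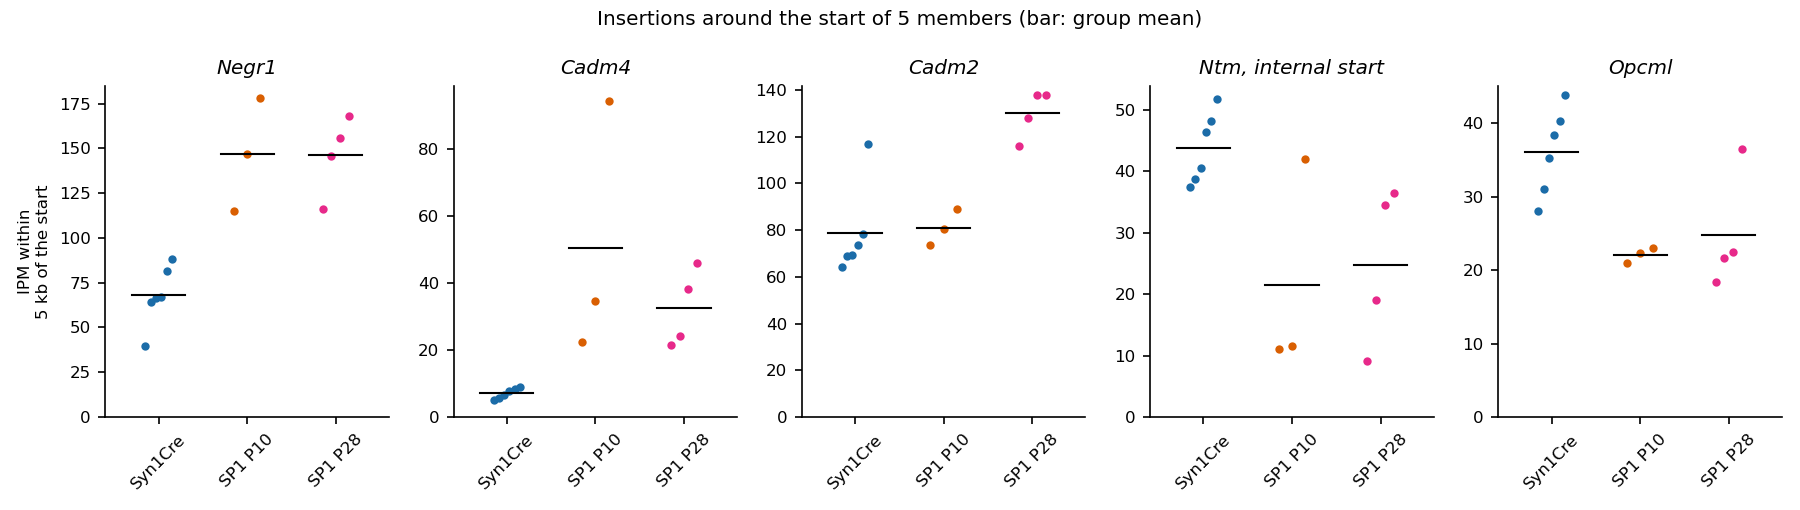
IPM within 5 kb of the start, 1 point per animal with a bar at the group mean (linear axes from 0), in Syn1Cre, SP1 P10 and SP1 P28. At Negr1 and Cadm4 all SP1 animals lie above all Syn1Cre animals; at the internal Ntm start and Opcml the SP1 means lie below, at 21.5 to 24.8.

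Between the ages of the SP1 animals, 5 of the 6 long members were denser at P28 than at P10. Of 7 members tested, 5 were higher at P28 than at P10 and 0 lower: Ntm (log2 1.21 ± 0.21, edgeR adjusted p = 0.0035), Cadm2 (1.05 ± 0.21, 0.0057), Opcml (1.03 ± 0.24, 0.0087), Negr1 (0.75 ± 0.21, 0.024) and Lsamp (0.70 ± 0.21, 0.030). Ntm had the largest ratio, its P28 animals at 96.2 to 141 and its P10 animals at 50.9 to 67.6. All 5, and also Cadm1 (log2 0.60, edgeR adjusted p = 0.063), had every P28 animal above every P10 animal, whereas Cadm4 overlapped (log2 -0.15, adjusted p = 0.74). Cadm3, not tested, also separated, from 7 insertions at P10 and 60 at P28. How many of all loci separate in this way was not counted. Over all loci 11.1% of 3458 were called, 7.40% higher. Among 451 loci of at least 300 kb, 21.5% were higher, with a median log2 ratio of 0.42 against 0.03 over all loci.

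Library totals kept the 5 calls, with log2 ratios of 0.59 to 1.12, while the split over all loci moved from 256 higher and 129 lower to 169 and 212, and the median from 0.03 to -0.10. The calls rest on the 3 P10 animals: without P10 replicate 3 no member was called, without replicate 2 only 2 were, and without replicate 1, or without P28 replicate 1, 3 were. The log2 ratios without P10 replicate 3 were 1.09 for Ntm, 0.95 for Cadm2, 0.83 for Opcml, 0.67 for Lsamp and 0.66 for Negr1. Of the 15 member windows that could be tested, 6 were higher at P28, 4 of them in Cadm2, beside 15.8% of all windows called and 10.3% higher. The highest was chr16:67500001-67550000 in Cadm2, from 33.6 ± 22.6 to 103 ± 17.5 IPM (log2 1.75, edgeR adjusted p = 0.012). With library totals 5 were higher, and the split over all windows moved from 257 higher and 139 lower to 119 and 128. Of 2 member starts tested, Cadm2 was higher (81.1 ± 7.85 to 130 ± 10.4 IPM, edgeR adjusted p = 0.0061) and Negr1 was at 147 in each, beside 12.8% of all starts called and 9.95% higher. Library totals left neither called and turned the split over all starts from 127 higher and 36 lower to 45 and 148. Astrocyte sums were 808 to 1058 in P10 and 892 to 2017 in P28, and their part was not tested.

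Syn1Cre against Syn1CreNeg asks what neuronal Cre changes. Cadm2 and Ntm were lower and Cadm3 higher in Syn1Cre. Cadm2 was at 205, 202, 222, 285, 366 and 274 in the 6 Syn1Cre animals, with 363, 419 and 451 as lowest, median and highest in Syn1CreNeg, where 1 Syn1Cre animal reached the range. Its log2 ratio was -0.68 ± 0.14 (edgeR adjusted p = 6.3e-04). Ntm was at 121, 134 and 178 against 178, 185 and 214 as lowest, median and highest, meeting at 178, with a log2 ratio of -0.46 ± 0.11 (edgeR adjusted p = 0.0032). Cadm3, the axonal member, was at 88.3, 101 and 119 against 29.9, 60.4 and 85.1, without overlap, with a log2 ratio of 0.61 ± 0.20 (edgeR adjusted p = 0.020) from 329 and 67 insertions. The Cadm2 and Ntm calls held in all 20 alternatives, and that of Cadm3 in 16. Without Syn1CreNeg replicate 6 the Cadm3 log2 ratio was 0.45 (edgeR adjusted p = 0.14).

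These were 1 higher and 2 lower of 8 members, beside 31.0% of 8610 loci called, 13.5% higher and 17.5% lower. Lsamp (log2 -0.30, edgeR adjusted p = 0.055) and Negr1 (0.25, 0.11) did not pass, and both passed with library totals (-0.29 and 0.26, adjusted p = 0.024 and 0.049) and with gene bodies without flanks (-0.27 and 0.29). With the label layout as a block, which sets animals 1 to 3 of both groups apart from animals 4 to 6, Lsamp passed (log2 -0.31, edgeR adjusted p = 0.0074) and Negr1 did not (0.25). With the replicate number as a block both passed (edgeR adjusted p = 0.012 and 0.049), and with insertions of at least 2 reads Lsamp did (-0.39) and with distinct positions Negr1 (0.26). Lsamp also passed without Syn1CreNeg replicate 1 or 3 or Syn1Cre replicate 4 or 5 (log2 -0.33 to -0.37), and Negr1 without Syn1Cre replicate 1 (0.34). Opcml, Cadm1 and Cadm4 had log2 ratios of 0.01, -0.04 and -0.13. Of 131 member windows tested, 28 were lower and 3 higher, beside 30.9% of all windows (17.4% lower, 13.5% higher), with 11 of the lower ones in Cadm2, 10 in Lsamp and 6 in Ntm. Library totals gave 26 lower and 8 higher, and turned the split over all windows from 2015 higher and 2607 lower to 2592 and 2400. The lowest was chr16:40500001-40550000 in Lsamp, at 42.2 ± 13.1 IPM in Syn1Cre and 109 ± 24.2 in Syn1CreNeg (log2 -1.49), and in Cadm2 chr16:67450001-67500000, at 239 ± 116 and 569 ± 70.1 (log2 -1.31). The Negr1 windows that passed were higher, among them chr3:157000001-157050000, at 92.9 ± 12.6 against 52.8 ± 20.1.

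Loci of other cell types moved with these results. The sum over astrocyte loci was 551 to 1835 IPM in Syn1Cre and 1933 to 2587 in Syn1CreNeg, and 5 of the 5 tested were lower and 0 higher. The Syn1Cre animal with the highest astrocyte sum, replicate 5, was also the highest for Cadm2 (366) and Ntm (178). Neuronal loci were higher in 3 of 5 and lower in 0, with sums of 1948 to 2345 and 1503 to 2159. Oligodendrocyte lineage loci were lower in 2 of 4 tested (median log2 -0.85) and higher in 0, the 1 microglial locus tested was lower (-0.93) and the 1 endothelial locus tested higher (0.88). Their part in the result was not tested. Insertions per table were 443158 to 1364948 in Syn1Cre and 97519 to 556145 in Syn1CreNeg.

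GFAPCre against GFAPCreNeg gave 1 member lower and 0 higher, beside 8.11% of 9201 loci called and 5.88% lower. Cadm2 was at 322, 291, 368, 342, 311 and 315 in GFAPCre, against 362, 388 and 474 as lowest, median and highest in GFAPCreNeg, with 1 animal of overlap. Its log2 ratio of -0.29 ± 0.09 (edgeR adjusted p = 0.041) passed in only 6 of 20 alternatives. It was lost without GFAPCre replicate 1, 2, 5 or 6 or GFAPCreNeg replicate 1, 2, 3, 4 or 6, at log2 ratios of -0.22 to -0.30. Without GFAPCre replicate 3, Lsamp passed too (log2 -0.24, edgeR adjusted p = 0.046). Lsamp was at 111 to 127 in GFAPCre and 135 to 154 in GFAPCreNeg, without overlap, and did not pass (log2 -0.23, edgeR adjusted p = 0.070). Ntm was at -0.22 (adjusted p = 0.14), and the remaining 5 members lay between -0.02 and 0.11. Of 132 member windows, 12 were lower and 0 higher, 6 in Lsamp and 4 in Cadm2, beside 6.68% of all windows (5.76% lower). With library totals 8 were lower, and the split over all windows moved from 156 higher and 975 lower to 269 and 833. The sum over astrocyte loci was 738 to 1519 in GFAPCre and 1369 to 2773 in GFAPCreNeg, and its part was not tested.

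Syn1Cre against GFAPCre called 0 of 8 members by edgeR, with 2 at an unadjusted p under 0.05 (Opcml and Cadm2, both lower) and 0 by DESeq2, beside 2.15% of 11550 loci. The nearest was Cadm2, at 259 ± 62.9 in Syn1Cre and 325 ± 27.0 in GFAPCre (log2 -0.37 ± 0.14, edgeR adjusted p = 0.16). Without Syn1Cre replicate 5, Cadm2 passed (log2 -0.51, edgeR adjusted p = 0.0049). With Syn1Cre animals 1 to 3 only, Cadm2, Lsamp and Ntm were lower. Those animals were at 202 to 222 for Cadm2 and animals 4 to 6, of the other linked set, at 274 to 366. Of 133 member windows 3 were lower, 2 in Cadm2 and 1 in Lsamp, and 0 higher, beside 2.84% of all windows (1.31% lower). The Lsamp window was chr16:40500001-40550000, at 42.2 ± 13.1 in Syn1Cre and 76.9 ± 21.4 in GFAPCre (log2 -0.81, edgeR adjusted p = 0.020). Counting each position once per animal left 0 windows.

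The DNA-read BrokenHeart libraries differed from the RNA-read C57bl6J libraries at 4 of 6 members tested, all lower, beside 39.9% of 1878 loci called and 21.1% lower. All 4 are loci of at least 300 kb, and of the 505 such loci tested 35.6% were lower. Readout, construct and library records cannot be told apart here. Negr1 was at 59.8, 73.6 and 66.8 in BrokenHeart and at 153 and 141 in C57bl6J (log2 -1.17 ± 0.15, edgeR adjusted p = 2.5e-07). Cadm2 was at 119 ± 8.70 (n = 3) and 214 ± 10.8 (n = 2), with a log2 ratio of -0.90 (edgeR adjusted p = 1.0e-06). Lsamp was at 59.9 ± 10.2 and 110 ± 3.80 (log2 -0.88, 1.3e-06), and Ntm at 88.0 ± 5.04 and 110 ± 4.47 (log2 -0.39, 0.022, and 0.054 with library totals). Neither these 4 nor Cadm1 overlapped between the groups, and how many of all loci separate in this way was not counted. Opcml (84.7 ± 5.25 and 89.5 ± 0.531, log2 -0.12) and Cadm1 (151 ± 10.8 and 166 ± 3.87, log2 -0.17) did not pass. Both passed with DESeq2 (log2 -0.43 and -0.48), with no low-count filter (-0.63 and -0.68) and without BrokenHeart replicate 2 (-0.62 and -0.68), and without either C57bl6J animal Ntm did not (-0.44 and -0.49). BrokenHeart held 9 insertions at Cadm3 and 6 at Cadm4, which were not tested.

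Rbp4Cre TRAP against Syn1Cre gave 4 lower members and 0 higher, beside 2.10% of 10690 loci called and 1.91% lower, from few insertions per Rbp4Cre table. All 4 are loci of at least 300 kb, and of the 551 such loci tested 14.7% were lower. The median of all loci was at -0.31, so that the ratios are best read from library totals, where it was -0.07 and the split moved from 21 higher and 204 lower to 55 and 74. Cadm2 was at 182 ± 17.5 in Rbp4Cre (n = 4) and 259 ± 62.9 in Syn1Cre, and stayed lower with library totals (log2 -0.52, edgeR adjusted p = 0.038). Negr1 was at 128 ± 19.1 and 177 ± 19 (log2 -0.50, 0.049). Lsamp (log2 -0.61) and Cadm1 (-0.78) were called with TMM and not with library totals (-0.33 and -0.52). Opcml was at 123 ± 4.31 against 101 ± 7.75, every Rbp4Cre animal above every Syn1Cre animal, and did not pass (log2 0.03, and 0.28 with library totals). The astrocyte sum was 159 to 533 in Rbp4Cre, below the Syn1Cre range, and its part was not tested. Without Syn1Cre replicate 4 or 6 only Negr1 was called. The Lsamp call was also lost without Syn1Cre replicate 2 or 3 or Rbp4Cre replicate 2 or 4 (log2 -0.54 to -0.68), and that of Cadm1 without Rbp4Cre replicate 1.

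Frontflip GFAPCre against GFAPCre called 0 of 8 members by edgeR, with 3 at an unadjusted p under 0.05 (Negr1 and Opcml lower, Ntm higher) and 0 by DESeq2, beside 1.65% of 10523 loci. Ntm was at 178 ± 23.4 in Frontflip (n = 3) and 149 ± 7.56 in GFAPCre (n = 6), and Opcml at 87.1 ± 14.9 and 114 ± 12, each at an edgeR adjusted p of 0.18. Without GFAPCre replicate 3, Negr1 (log2 -0.39) and Opcml (-0.38) passed. C57bl6J against Syn1Cre called 0 of 8 by edgeR, 0 at an unadjusted p under 0.05 and 0 by DESeq2, beside 0.810% of 14441 loci. The members' log2 ratios there ran from -0.21 (Ntm) to 0.10 (Lsamp). Library totals moved the median of all loci to -0.16 and the split from 114 higher and 3 lower to 37 and 17, and called none of the members.

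Companion genes gave a context. Of 23 other neural immunoglobulin adhesion genes, 22 were tested with SP1: 1 was higher and 16 lower at P10 (median log2 -1.30 against -0.28 over all loci), and 1 higher and 15 lower at P28 (-0.56 against -0.06). The higher one was Iglon5, another IgLON gene, of only 17.3 kb, at 26.3 ± 13.2 in Syn1Cre, 195 ± 80.0 in P10 (log2 2.32, edgeR adjusted p = 2.4e-04) and 92.3 ± 33.2 in P28 (1.53, 3.6e-04). The lowest was Cntn4, which encodes a contactin, over 1023 kb, at 72.1 ± 9.09, 21.4 ± 7.87 and 26.1 ± 8.34 (log2 -2.32 and -1.88), with Mdga2 (-2.10) next at P10 and Cntn3 (-1.69) at P28. Between the SP1 ages, 7 of 19 were higher at P28 and 0 lower, with Alcam (log2 1.17) and Ncam2 (1.11) the highest.

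Of 16 Cadm and nectin partners, which bind Cadm proteins or their relatives, 3 were higher and 3 lower at P10 (median -0.44) and 4 higher and 3 lower of 15 at P28 (-0.26). Nectin2 (log2 2.98 at P10, 2.00 at P28) and the scaffold gene Mpp2 (1.87 and 1.80) were the highest, over 32.9 and 31.6 kb. Afdn, for the nectin-binding protein afadin, was the lowest (-1.60 and -1.57). Against Syn1CreNeg, Syn1Cre had 4 higher and 3 lower of 13 partners, with Pals2 lowest (log2 -1.01) and Nectin1 highest (0.67), and 4 higher and 8 lower of 21 adhesion genes, with Cntn2 lowest (-1.07) and Sdk1 highest (0.94). GFAPCre against GFAPCreNeg had 0 higher and 2 lower of 13 partners (Pals2 -0.76, Farp1 -0.56) and 0 higher and 4 lower of 21 adhesion genes (Igsf11 -0.70, Cntn2 -0.56). BrokenHeart against C57bl6J had 2 higher and 0 lower of 7 partners, and 1 higher (Igsf11, 0.96) and 7 lower of 19 adhesion genes, with Mdga2 (-1.49) and Chl1 (-1.46) lowest. Rbp4Cre against Syn1Cre had 0 of 13 partners called and 4 lower of 22 adhesion genes, with Igsf11 lowest (-2.01). Syn1Cre against GFAPCre had 0 of 14 and 1 of 21 (Ncam2, -0.59), Frontflip 1 higher partner of 13 (Farp1, 0.74) and 1 lower adhesion gene of 21 (Cntn4, -0.61), and C57bl6J 1 higher partner of 16 (Pard3, 0.79) and 0 of 22. The lists were chosen with earlier results of these data known.

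Single positions recurred across animals. The most shared in Lsamp, chr16:41534420, was hit in 43 of 46 animals (332 insertions) and lay 1.59 kb from the internal start. Position chr16:67482889 in Cadm2 was hit in 43 animals (504 insertions), 138 kb from the start. The most shared Negr1 and Opcml positions, chr3:156560736 and chr9:27792406, were each hit in 36 animals and lay 1.06 and 1.11 kb from the start. In Cadm1 (chr9:47770931) and Cadm3 (chr1:173360145) they lay inside the body and were hit in 35 and 33 animals. Between 22.8% (Cadm4, 92 positions) and 32.2% (Cadm3, 152 positions) of the positions hit in a locus were hit in 1 animal only, and for Lsamp, with 10331 positions, it was 31.2%.

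The locus whose mean level over the 11 groups was most like each member's was sought among 10802 loci, as Pearson's r of log2(IPM + 0.1). It was Dmd for Lsamp (0.981), Csmd3 for Negr1 (0.971), Ano3 for Ntm (0.968), Cdh6 for Opcml (0.989), Gria3 for Cadm1 (0.942), Gphn for Cadm2 (0.990), Etf1 for Cadm3 (0.998) and Klf16 for Cadm4 (0.987). Groups of few insertions weigh in these values, and they are a description with no test. Among the members, Lsamp and Cadm2 were most alike (0.919), and Cadm4 was most like Cadm3 at 0.260.

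In N2a, a mouse neuroblastoma line whose 3 experiments were deposited as 1 table of 806653 insertions, the order of the members differed from cortex, and there is no replicate. Cadm1 had 185 insertions (exact Poisson 95% interval 159 to 214), a density of 65.2, Cadm4 18 (10.7 to 28.4, density 52.5), Opcml 347 (311 to 386, 37.3) and Lsamp 580 (534 to 629, 32.5), near the median locus at 32.6. Cadm3 had 8 (3.45 to 15.8, 17.6) and Cadm2 65 (50.2 to 82.8, 8.18). Negr1 had 28 (18.6 to 40.5, 4.48) and Ntm 10 (4.80 to 18.4, 1.26), 0.138 and 0.0385 times the median locus, whereas in Syn1Cre cortex Negr1 was denser than 96.9% of loci and Ntm than 94.5%. The intervals cover counting error only.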

How the data were processed

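Calling card insertions were measured in mouse cortex or forebrain of 46 animals and in N2a cells. Each line of the authors' deposited tables is 1 insertion (position, strand, barcode) with its raw read count. Reads were aligned to mm10 with Novoalign and Bowtie2 named, without role or version, per the submitters' processing notes, and the barcodes of a replicate were pooled into 1 table, per the series' design text. Filters are not given in the sources used here. BrokenHeart positions were moved by -1 to match the SRT positions, after which 78.0 to 79.4% coincided.

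Lines, not reads, were counted per protein-coding locus (body with 10 kb each side, RefSeq GRCm38.p6), per 50 kb window and within 5 kb of annotated starts, on chromosomes 1 to 19 and X. Counts were tested with edgeR 4.0.16 in R 4.3.3 (quasi-likelihood, TMM, low-count filter, Benjamini-Hochberg over all features, threshold 0.05), with only the groups compared in a fit. A value ± another is a mean ± SD, and a log2 ratio ± its SE. TTAA density and mappability were not corrected. Alternatives were DESeq2 1.42.0, library totals without TMM (for windows and starts chosen after the data were seen), no filter, distinct positions, insertions with at least 2 reads, bodies without flanks, 25 kb windows, 1 kb starts, animals linked by shared library records, the label layout (titles with or without the tissue) or the replicate number as a block, and each animal left out. The fit was tested on simulated counts.

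All 8 members were named, with up to 4 genes of each companion list (the 2 highest and 2 lowest past the threshold), the closest locus to each member, and each member's highest and lowest window past the threshold. The members, lists and tests were chosen with earlier results of these data known. Animals of Syn1Cre and Syn1CreNeg with the same number had deviations correlated at 0.015 to 0.19, and no comparison with 3 or more such pairs had every correlation over 0.1, so the numbers were not taken as pairs. Python 3.11.15 (numpy 2.4.6, pandas 2.3.3, scipy 1.17.1, matplotlib 3.10.9) served for counting and plots.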

Additional observations from a re-analysis of the deposited data

Results flagged for a closer look

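Of 48 sets of a member's densities in groups of 4 to 10 animals, 4 held an animal far from the others, where chance gives about 1 in 20. Ntm was at 187 in Rbp4Cre replicate 4, from 45 insertions, with the others at 143 to 146. Ntm was at 178 in Syn1Cre replicate 5, with the others at 121 to 139, and at 96.2 in SP1 P28 replicate 4, with the others at 135 to 141. Cadm2 was at 474 in GFAPCreNeg replicate 6, with the others at 362 to 400.

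The change against Syn1Cre differed between the SP1 ages for 5 members by edgeR's test of P28 against P10. The log2 difference was 0.70 for Lsamp, 0.75 for Negr1, 1.21 for Ntm, 1.03 for Opcml and 1.05 for Cadm2, each higher at P28. The SP1 P10 group had 3 animals with 86842 to 95331 insertions each.

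The N2a table stood outside all comparisons and held insertions in each locus above the limit that a count of 0 allows: 580 in Lsamp, 28 in Negr1, 10 in Ntm, 347 in Opcml, 185 in Cadm1, 65 in Cadm2, 8 in Cadm3 and 18 in Cadm4. Passing that limit does not make a locus dense, as Negr1 and Ntm were at 0.138 and 0.0385 times the median locus.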

How the results depend on the processing

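The counts of members past the threshold held within 1.5 times in 78 of 101 alternatives other than leaving out an animal, and in 76 of 94 that left one out. For single members, 477 of 555 and 675 of 735 values kept their direction and side of the threshold, and 1 reversed. The causes were not tested, save where fewer members could be tested. Syn1Cre against GFAPCre went from 0 to 3 members with Syn1Cre animals 1 to 3 only, and its member windows from 2.26% to 0% with distinct positions. Syn1Cre against Syn1CreNeg went from 3 to 5 with library totals or with bodies without flanks, and to 4 with the label layout as a block. GFAPCre against GFAPCreNeg went from 1 to 3 with DESeq2 and to 0 with no low-count filter, distinct positions, bodies without flanks, or only animals linked to the other group by library records, with the linked set as a block; its windows went from 9.09% to 5.75% with 25 kb windows and to 6.06% with library totals. SP1 P28 against Syn1Cre went from 8 to 5 with library totals and to 4 with bodies without flanks (7 tested), and its starts from 6 to 3 with distinct positions and to 1 with 1 kb each side (1 tested). SP1 P10 starts went from 7 to 3, and the P28 against P10 start from 1 to 0, with library totals. P28 against P10 went from 5 to 3 members with no low-count filter, and Rbp4Cre from 4 to 2 with library totals. Depth limited Cadm3 and Cadm4 most, with 7 and 48 insertions in the SP1 P10 animals.

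With the replicate number as a block, 5 members passed in Syn1Cre against Syn1CreNeg, 0 in GFAPCre against GFAPCreNeg, 0 in Rbp4Cre, and 2 in C57bl6J, where Lsamp and Cadm2 were higher and the Cadm2 log2 ratio turned from -0.15 to 0.29. The other counts were 0 (Syn1Cre against GFAPCre), 8 (P28), 8 (P10), 6 (P28 against P10), 4 (BrokenHeart) and 0 (Frontflip). The samples share only a number.

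With each animal left out in turn, 0 to 1 members passed in Syn1Cre against GFAPCre, 2 to 4 in Syn1Cre against Syn1CreNeg, 0 to 2 in GFAPCre against GFAPCreNeg, 7 to 8 in P28 and 8 in P10 against Syn1Cre, 0 to 6 in P28 against P10, 3 to 6 in BrokenHeart, 1 to 4 in Rbp4Cre, 0 to 2 in Frontflip and 0 in C57bl6J. Where 1 C57bl6J animal was left, it was assumed to vary like the other group.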
